A study of Mus musculus with 27 samples.

Results

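The complement and coagulation factors described here are 39 genes, 22 of complement and 17 of coagulation and fibrinolysis, chosen by name from the 22552 genes of the deposited liver RNA table. All 39 were listed there, and they were chosen with earlier results of these data known. Liver RNA came from male C57B/6J mice, 3 to a group, on diets that differed in carbonyl iron: 0.9 mg per kg in the low-iron group (LID), 50 mg per kg in the standard group (SID) and 8.3 g per kg in the high-iron group (HID). LID feeding began at 3 weeks of age, whereas SID and HID feeding began at 6 weeks, so low iron and the earlier start cannot be told apart in any LID comparison. The table gave 1 FPKM per gene and diet, a fragment count scaled to transcript length and library size and merged by the authors across a diet's libraries, so no value below carries an SD.

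Complement is a cascade of plasma proteins in which the classical, lectin and alternative routes all cleave C3, after which C5 to C9 assemble the membrane attack complex that opens a pore in the target membrane. Coagulation is a second plasma cascade, in which vitamin K-dependent proteases and their cofactors generate thrombin, thrombin turns fibrinogen into fibrin, and plasmin dissolves it. Hepatocytes make most of these proteins, while C1q and properdin come mainly from macrophages and other myeloid cells and factor VIII from sinusoidal endothelial cells. In laboratory mice, terminal complement activity in serum is known to be higher in males than in females, and C6 belongs to the genes with male-biased liver expression.

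A gene was tested when its mean over the 3 diets was at least 1 FPKM and its adjusted p in the authors' deposited table was below 1, and 38 of the 39 members were tested in every comparison. Cfd alone was left out. A tested gene is said to have risen or fallen when that adjusted p was below 0.05. Log2 changes are those of FPKM + 1, given relative to the median tested gene, whose own change was −0.07 in HID against SID. It was −0.13 in LID against SID and 0.06 when HID was set against LID. Tfrc, the transferrin receptor that cells raise when short of iron, rose in LID and fell in HID, both against SID, and stood at 30.4 FPKM in LID, 4.56 FPKM in SID and 1.85 FPKM in HID. Alb was listed at 0 in every diet through a limit on very abundant genes and not through absence, a limit that touched none of the 39 members.

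On the standard diet the members spanned 0.967 to 2898 FPKM with a median of 139 FPKM. The 3 fibrinogen chains stood highest, Fgg at 2898 FPKM, Fgb at 2703 FPKM and Fga at 1158 FPKM, followed by Kng1 (kininogen) at 907 FPKM, C3 at 753 FPKM and F2 (prothrombin) at 742 FPKM. Cfp (properdin), Masp1, F8 and Cfd closed the order at 8.92, 7.06, 1.68 and 0.967 FPKM. Summed over all 39, the members amounted to 11491 FPKM in LID, 14011 FPKM in SID and 13912 FPKM in HID, or 2.73%, 3.00% and 2.87% of all listed FPKM. The fibrinogen chains alone made up 52.2% of that sum in LID, 48.2% in SID and 56.4% in HID.

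**Figure D1:**
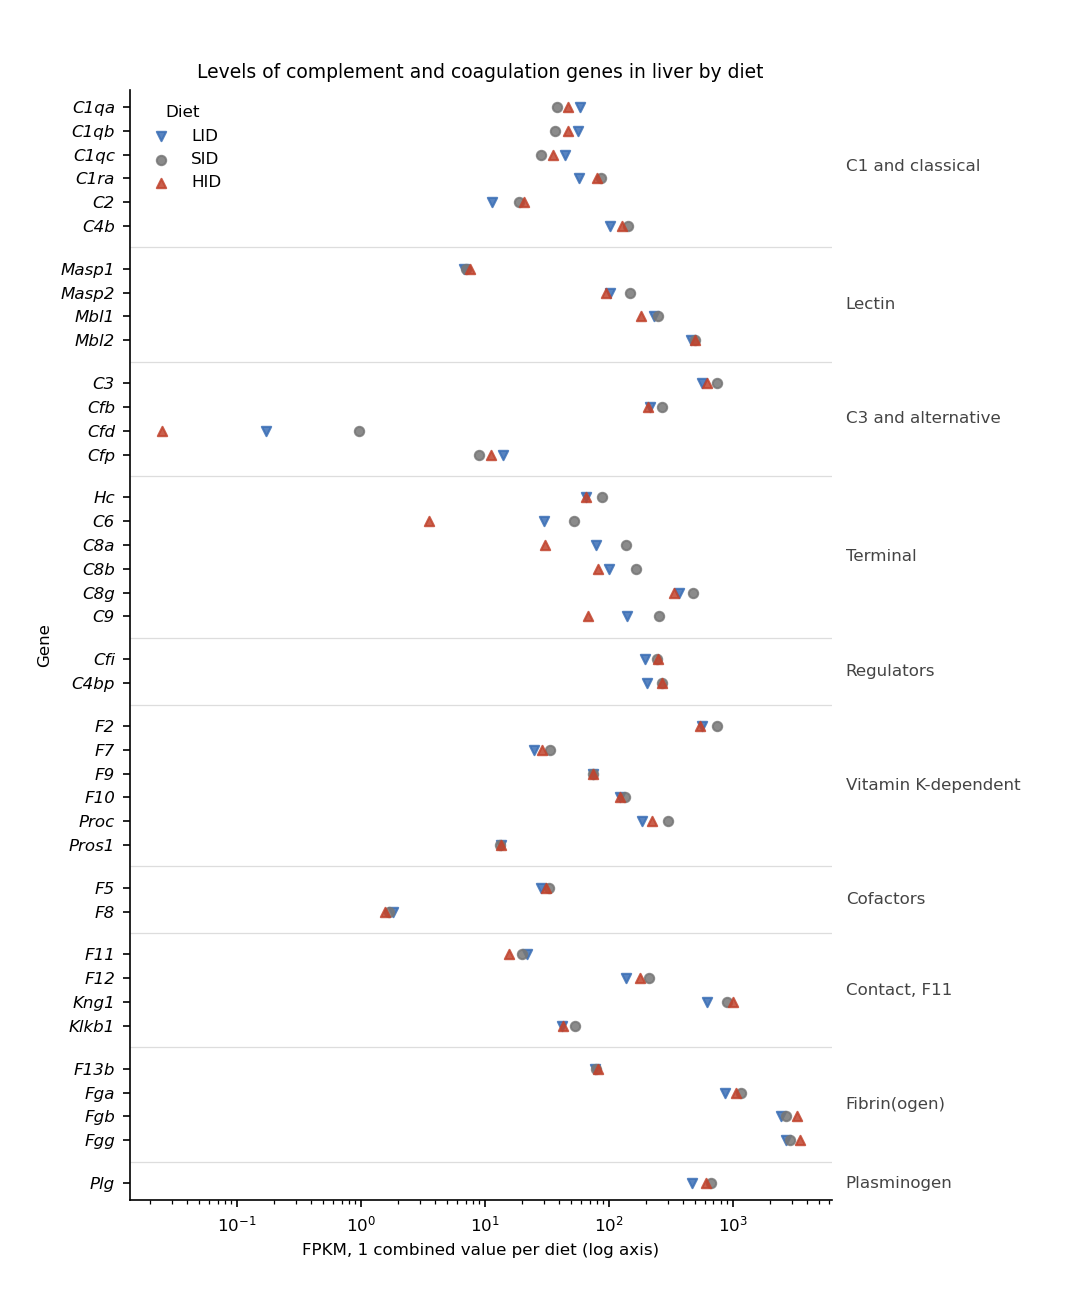
Level of each of the 39 genes on each diet, grouped by role, with FPKM on a log axis; downward triangles stand for LID, circles for SID and upward triangles for HID, 1 combined value each. Most genes kept their 3 symbols close together, whereas C6 fell to 3.57 FPKM in HID, against 52.9 FPKM in SID.

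The high-iron diet was set against the standard diet to see which of these genes respond to iron loading. Only terminal complement genes passed the threshold: C6, C8a, C8b and C9 fell in HID, by 14.8, 4.52, 2.05 and 3.77 times, and no member rose. At an unadjusted p below 0.05 in the authors' deposited table, 6 members were lower in HID and 0 higher, C8g and Mbl1 being added, while 11.4% of all tested genes were lower and 6.63% higher by the same rule. The called 4 are 10.5% of the 38 tested members, while 3.84% of all 9473 tested genes fell and 2.82% rose (6.66% in either direction). None of the other 34 members passed, 33 of them differed by less than 1.5-fold, and the median change over the members was −0.06, or −0.02 without those 4.

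**Figure D2:**
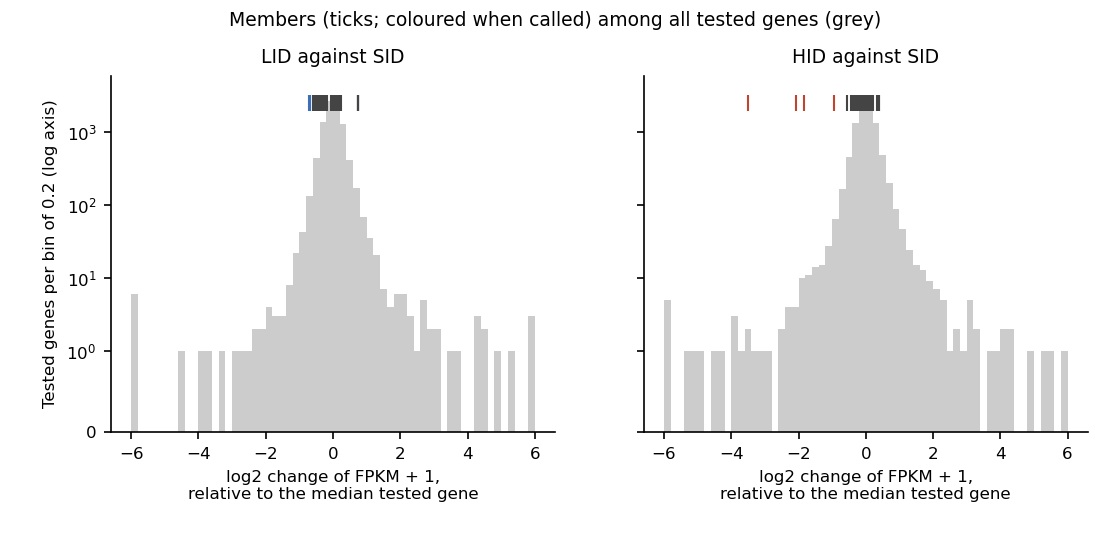
Changes of the members (ticks; coloured where called) over the distribution of all tested genes (grey), for LID against SID on the left and HID against SID on the right. The horizontal axis is the log2 change of FPKM + 1 relative to the median tested gene, with values beyond 6 in either direction placed in the end bins, and the vertical axis counts genes on a log axis; the 4 coloured ticks on the right run from −3.49 to −0.95.

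The terminal pathway consists of C5 (Hc in the mouse), C6, C7, C8 with its 3 chains, and C9, and C7 was not analysed here. C6, the component that binds C5b and starts the assembly, had 29.8 FPKM in LID, 52.9 FPKM in SID and 3.57 FPKM in HID. Its log2 change in HID against SID was −3.49, with an adjusted p listed as 0 in the authors' deposited table, and it held place 15 from the lowest of 9473 tested genes. C8a, the C8 chain that inserts into the membrane, had 78.6 FPKM in LID, 139 FPKM in SID and 30.6 FPKM in HID. Its change was −2.07, with an adjusted p listed as 0 in the authors' deposited table, at place 29. C9, which polymerises into the wall of the pore, had 141 FPKM in LID, 255 FPKM in SID and 67.8 FPKM in HID. Its change was −1.83 (adjusted p = 1.22e-13 in the authors' deposited table), at place 37. C8b, the chain through which C8 joins the complex, had 101 FPKM in LID, 167 FPKM in SID and 81.7 FPKM in HID, a change of −0.95 in HID against SID (adjusted p = 0.000817 in the authors' deposited table). In each of the 4 genes the HID value was the lowest of the 3 diets and the SID value the highest. Of the markers of hepatocytes, which make these components, 0 of 10 tested passed in HID against SID and 0 of 9 in LID against SID, with median changes of −0.27 and −0.25, and 1 and 2 of them were lower at an unadjusted p below 0.05 in the authors' deposited table, a rule that 18.1% and 17.0% of all tested genes met in either direction. By FPKM, 10 of those 10 markers were lower in HID than in SID, and 8 of those 9 were lower in LID than in SID. The 12 listed markers summed to 14766 FPKM in LID, 24422 FPKM in SID and 19817 FPKM in HID, with Alb listed at 0. In bulk liver, fewer cells of a type and less RNA per cell cannot be told apart.

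The remaining terminal genes did not pass the threshold in any comparison. Hc, whose product is split to release the C5a peptide and C5b, had 66.2 FPKM in LID, 87.7 FPKM in SID and 65.2 FPKM in HID, and for HID against SID the authors' deposited table gave an adjusted p of 0.492. C8g, the lipocalin chain bound to C8 alpha, had 368 FPKM in LID, 475 FPKM in SID and 336 FPKM in HID, and for the same comparison the authors' deposited table gave an adjusted p of 0.336. Because the C8 chains share 1 complex, their FPKM were also set against each other. C8a stood at 0.214 of C8g in LID, 0.292 in SID and 0.0911 in HID, while C8b stood at 0.274 of C8g in LID, 0.352 in SID and 0.243 in HID. Against C8b, C8a stood at 0.780 in LID, 0.829 in SID and 0.375 in HID. Together, the 6 terminal genes held 784 FPKM in LID, 1176 FPKM in SID and 585 FPKM in HID.

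**Figure D3:**
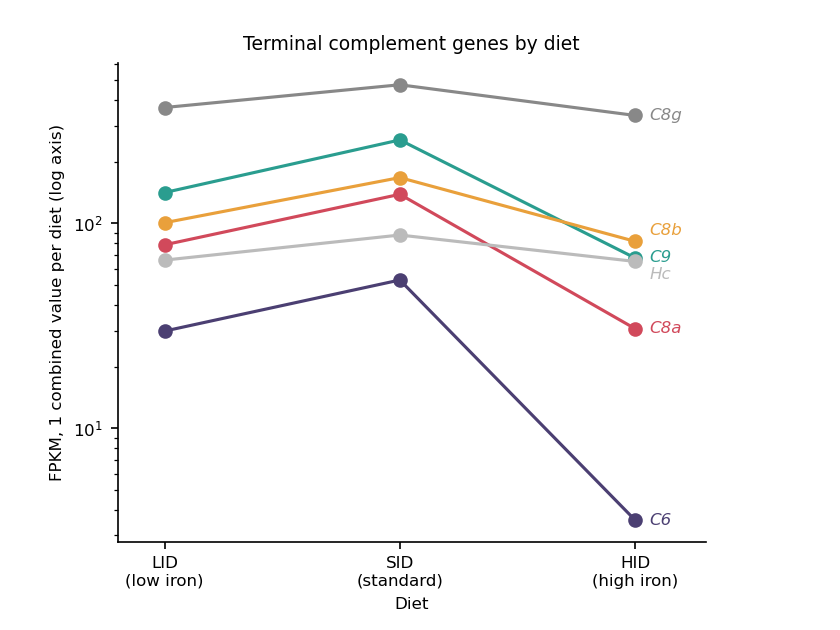
The 6 terminal complement genes on the 3 diets, ordered from low to high iron, with FPKM on a log axis and 1 combined value per diet; lines join the values of a gene. All 6 were highest in SID, and the spread between C6 and C8g was widest in HID, where C6 stood at 3.57 FPKM and C8g at 336 FPKM.

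The promoters of the 4 genes that fell in HID are shown because these genes moved together. Each run is the 250 bases before the gene's start, 5′ to 3′ on the gene's own strand, from RefSeq on build GRCm38.p6, a later build than the mm9 of the expression table. Capitals mark matches to 3 motifs of liver and cytokine-responsive factors searched on both strands, the C/EBP motif TTGCNNAA, the type 2 acute-phase element CTGGGAA and the STAT motif TTCNNNGAA. The positions are chr15:4726960-4727209 (plus strand) for C6, chr4:104876399-104876648 (minus strand) for C8a, chr4:104766067-104766316 (plus strand) for C8b and chr15:6445096-6445345 (plus strand) for C9.
C6: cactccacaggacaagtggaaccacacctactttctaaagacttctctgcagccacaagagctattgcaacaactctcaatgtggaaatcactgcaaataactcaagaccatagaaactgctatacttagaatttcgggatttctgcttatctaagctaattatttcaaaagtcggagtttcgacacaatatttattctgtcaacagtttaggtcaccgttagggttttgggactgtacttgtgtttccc
C8a: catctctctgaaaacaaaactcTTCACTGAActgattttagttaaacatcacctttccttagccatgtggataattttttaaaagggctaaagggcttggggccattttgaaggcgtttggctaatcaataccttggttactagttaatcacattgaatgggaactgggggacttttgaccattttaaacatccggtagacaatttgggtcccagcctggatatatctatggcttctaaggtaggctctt
C8b: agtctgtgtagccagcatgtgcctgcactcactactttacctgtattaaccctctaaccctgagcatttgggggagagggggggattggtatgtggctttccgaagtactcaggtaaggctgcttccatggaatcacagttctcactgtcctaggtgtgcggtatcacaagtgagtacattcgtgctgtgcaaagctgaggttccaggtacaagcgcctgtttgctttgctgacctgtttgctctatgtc
C9: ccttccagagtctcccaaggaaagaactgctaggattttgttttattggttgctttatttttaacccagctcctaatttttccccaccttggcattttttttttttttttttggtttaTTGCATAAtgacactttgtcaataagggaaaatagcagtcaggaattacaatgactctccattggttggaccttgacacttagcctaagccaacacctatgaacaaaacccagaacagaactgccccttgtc
C6 and C8b held none of these letters in their windows. C8a held a STAT match at bases 228 to 220 before its start, and C9 held a C/EBP match at bases 132 to 125. No motif was common to all 4.

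Promoters were found for 30 of the 39 members. The C/EBP motif was in 7 of the 30 (C3, C9, F9, F11, Fga, Fgb and Klkb1). It was in 10.8% of all 27025 genes with a promoter of the same length and in 9.54% of the 6869 tested genes that had one. The STAT motif was in 6 (C8a, F9, Fga, Fgb, Masp2 and Pros1), against 8.13% of all genes and 7.15% of tested genes. CTGGGAA was in 5 (C1ra, F9, Fgb, Fgg and Masp2), against 10.4% of all genes and 10.9% of tested genes. In F9 and Masp2 the STAT and CTGGGAA matches overlapped. Of the members' promoters, those of F9 and Fgb carried all 3 motifs.

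C6 and C9 lie on chromosome 15 with other genes between them, and C8a and C8b lie side by side on chromosome 4, by the gene order of GRCm38.p6. The nearest tested protein-coding genes, 3 on either side of each, were looked up for their own change. Around C6 (Fbxo4, AW549877, Oxct1, Card6, Rpl37 and Prkaa1) none passed the threshold in HID against SID. Around C9, Lifr, the receptor of leukaemia inhibitory factor, fell to 12.5 FPKM in HID, against 29.1 FPKM in SID, a change of −1.08 (adjusted p = 0.00210 in the authors' deposited table), while Prkaa1, Ttc33, Dab2, Rictor and Wdr70 did not pass. Around C8a and C8b, Oma1, Slc35d1, Mier1, Prkaa2 and Usp24 did not pass.

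The genes of the whole table whose 3 levels lay nearest to those of C6 were sought among those with at least 1 FPKM on every diet, by the Euclidean distance between centred log2(FPKM + 1) values over the 3 diets. The nearest 5 were Cyp4a12a (distance 0.280), Cyp4a12b (0.303), Tff3 (0.548), Serpina4-ps1 (0.640) and Slco1a1 (0.732). Cyp4a12a, a fatty acid hydroxylase, had 47.3 FPKM in LID, 97.6 FPKM in SID and 5.35 FPKM in HID, and it shares much sequence with Cyp4a12b, so reads may be split between them. Of the 5, Cyp4a12a, Cyp4a12b and Slco1a1 are on a list of male-biased liver genes, which also holds C6. Leaving C6 out, 11 of 11 tested genes of that list fell in HID against SID, with a median change of −3.47, 7 of 11 fell in LID against SID, with a median of −0.76, and 8 of 12 fell in HID against LID, with a median of −2.25. None of the tested genes rose in any of the 3 comparisons. The 15 genes listed without C6, untested ones included, summed to 12430 FPKM in LID, 3448 FPKM in SID and 3406 FPKM in HID. The sum of the list thus did not follow its tested genes. As examples, Elovl3, a fatty acid elongase, stood at 3.72 FPKM in HID, against 207 FPKM in SID, and Hsd3b5, a steroid dehydrogenase, at 3.64 FPKM in HID, against 136 FPKM in SID. Of the female-biased list, 8 of 9 tested genes rose in HID against SID and 7 of 8 in LID against SID, and in HID against LID 5 of 9 rose and 2 fell. Since 5 of those 9 and 4 of those 8 stood below 1 FPKM in SID and were tested only through diets where they were high, these counts lend no support. Among them, Cyp2b9, a cytochrome P450, stood at 29.1 FPKM in LID, 0.443 FPKM in SID and 150 FPKM in HID. The part of this pattern in the levels of the terminal genes was not tested.

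Transcription factors known to act on liver genes were followed on the same diets. Of 16 tested, Foxa1 and Foxa3, forkhead factors of hepatocytes, fell in HID against SID, and Foxa1, Foxa2 and Foxa3 fell in LID against SID. Foxa3 had 13.5 FPKM in LID, 26.7 FPKM in SID and 16.0 FPKM in HID. Hnf4a, with 75.0 FPKM in LID, 107 FPKM in SID and 82.3 FPKM in HID, did not pass in either comparison, nor did Cebpa. The median change of the 16 factors was −0.22 in HID against SID, with 13 lower by FPKM. It was −0.21 in LID against SID, with 14 lower. Of 10 tested genes of the growth hormone axis, Igfals, the acid-labile subunit that carries IGF1, fell to 14.6 FPKM in HID, against 30.0 FPKM in SID, and Bcl6, a repressor of female-biased genes, fell to 3.17 FPKM in HID, against 5.22 FPKM in SID. Igfals and Rtp3 fell in LID against SID. The median change of the 10 axis genes was −0.33 in HID against SID, with 10 lower by FPKM. It was 0.16 in LID against SID, with 5 lower and 5 higher.

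Low iron was then set against the same SID values, so its results are not independent of those above. In LID, C6, C8a, C9 and C2 fell and C1qc rose. That makes 10.5% of the 38 tested members lower and 2.63% higher, while 3.31% of all 9482 tested genes fell and 1.57% rose (4.88% in either direction). None of the 5 changed by 2-fold. Of the 33 members that did not pass, 26 differed by less than 1.5-fold, and the members' median change was −0.22. Relative to the median tested gene, 25 of the 38 lay lower and 13 higher in LID than in SID. Before adjustment, the authors' p was under 0.05 for 13 of the 38 members in LID against SID, 9 lower and 4 higher. The same held for 17.0% of all 9482 tested genes, counting both directions.

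The terminal genes that fell in LID did so by similar factors. C6 fell 1.77-fold, a change of −0.67 (adjusted p = 0.00591 in the authors' deposited table), and C8a fell 1.76-fold, a change of −0.68 (adjusted p = 0.0301 in the authors' deposited table). C9 fell 1.81-fold, a change of −0.72 (adjusted p = 0.0170 in the authors' deposited table). C8b was 1.66-fold lower but missed the threshold (adjusted p = 0.0587 in the authors' deposited table). C2, the classical and lectin protease that joins C4b in the C3 convertase, fell to 11.5 FPKM in LID, against 19.0 FPKM in SID, a change of −0.54 (adjusted p = 0.0149 in the authors' deposited table).

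**Figure D4:**
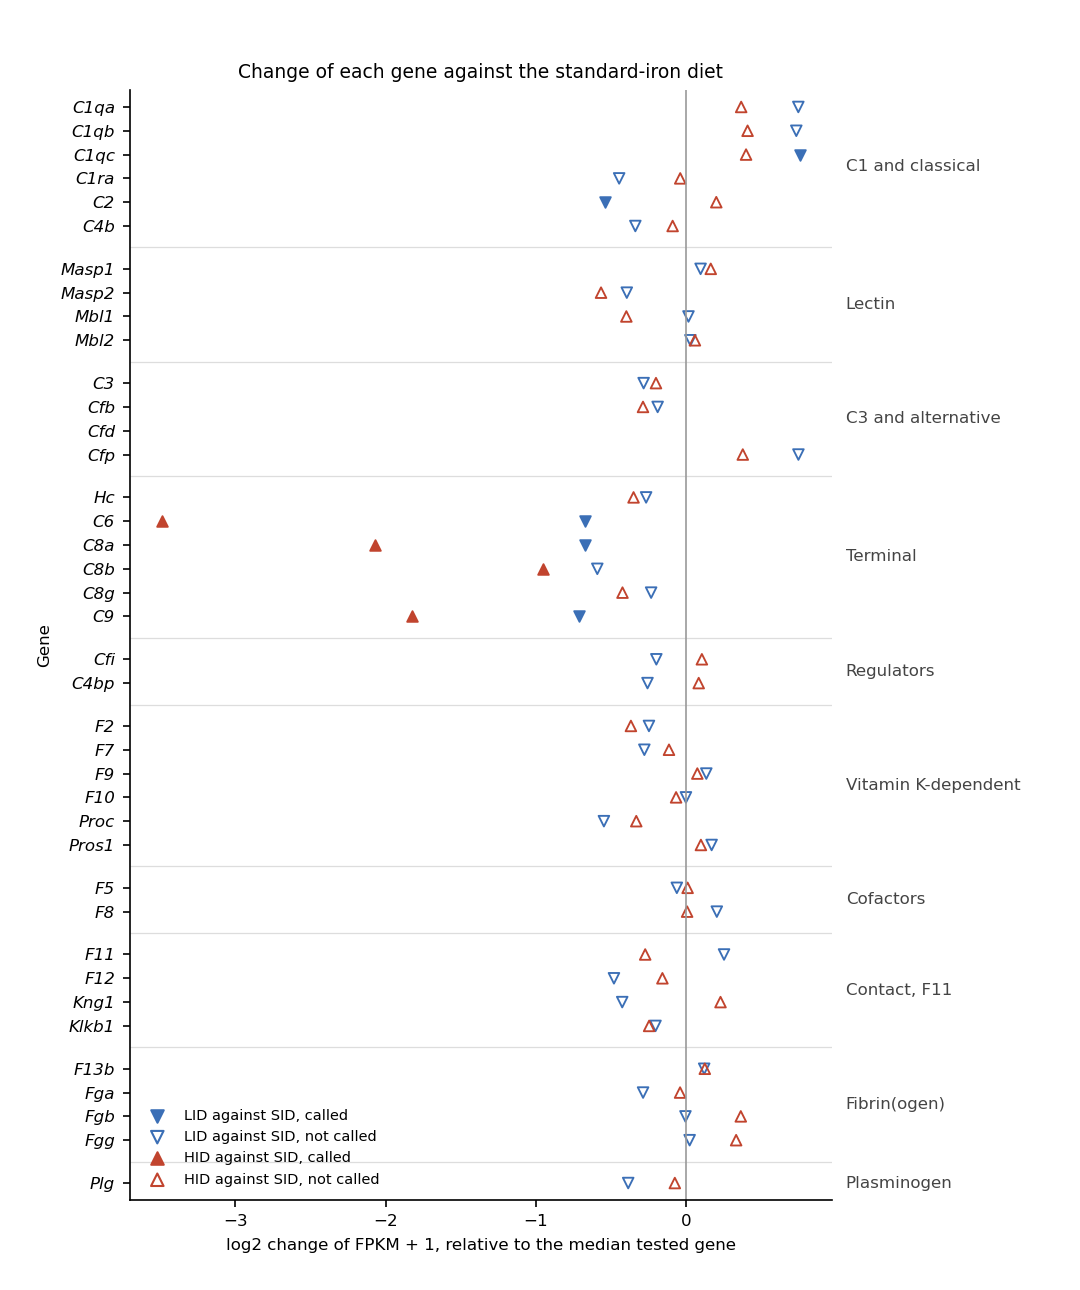
Log2 change of FPKM + 1 of each member against SID, relative to the median tested gene, grouped by role; downward triangles stand for LID and upward triangles for HID, filled where the authors' adjusted p was below 0.05. Filled symbols below 0 are C2, C6, C8a, C8b and C9, the only filled symbol above 0 is C1qc in LID at 0.75, and Cfd has no symbol because it was not tested.

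HID was also set directly against LID, the extremes of the iron range. C6, C8a and C9 fell and C2 rose, 7.89% of the 38 tested members lower and 2.63% higher, against 1.84% of 9490 tested genes lower and 2.10% higher (3.94% in either direction). C6 was 8.36-fold lower in HID than in LID, a change of −2.82 with an adjusted p listed as 0 in the authors' deposited table. C8a was 2.57-fold lower, a change of −1.39 (adjusted p = 0.000148 in the authors' deposited table), and C9 was 2.09-fold lower, a change of −1.11 (adjusted p = 0.00673 in the authors' deposited table). C8b, at 81.7 FPKM in HID and 101 FPKM in LID, did not pass (adjusted p = 0.762 in the authors' deposited table). C2 stood at 20.8 FPKM in HID and 11.5 FPKM in LID, a change of 0.74 (adjusted p = 0.0161 in the authors' deposited table).

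Among the classical pathway genes, the 3 chains of C1q, the recognition unit that binds antibody complexes, differed between diets by nearly the same amounts. C1qa had 58.6 FPKM in LID, 38.0 FPKM in SID and 46.8 FPKM in HID. C1qb had 56.0 FPKM in LID, 36.7 FPKM in SID and 46.5 FPKM in HID. C1qc had 44.1 FPKM in LID, 28.3 FPKM in SID and 35.7 FPKM in HID. In all 3 chains LID was highest and SID lowest. C1qc rose in LID against SID by 0.75 (adjusted p = 0.0474 in the authors' deposited table), whereas C1qa and C1qb, at 1.54-fold and 1.53-fold higher, missed the threshold with adjusted p of 0.0523 and 0.0604 in the authors' deposited table. In HID against SID the changes were 0.36, 0.41 and 0.40 for C1qa, C1qb and C1qc, and none passed. The proportions between the chains hardly moved, with C1qa at 1.05, 1.04 and 1.01 of C1qb in LID, SID and HID, and C1qc at 0.787, 0.772 and 0.768 of C1qb. The 3 genes lie together on chromosome 4.

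Cfp encodes properdin, the protein of myeloid cells that stabilises the alternative convertase. It had 14.2 FPKM in LID, 8.92 FPKM in SID and 11.2 FPKM in HID, the same order as the C1q chains, and was 1.59-fold higher in LID than in SID without passing (adjusted p = 0.0627 in the authors' deposited table). Markers of macrophages and of neutrophils, a myeloid cell that holds properdin, moved as well. Of 13 Kupffer cell and macrophage markers tested, 7 rose and 0 fell in LID against SID (Marco, Lyz2, Vsig4, Timd4, Ctss, Csf1r and Emr1), with a median change of 0.76, and 3 rose and 0 fell in HID against SID (Lyz2, Vsig4 and Cd5l), with a median of 0.60. In HID against LID 1 fell, Marco, and the median was −0.09. None of the 13 was listed at 0, and their summed level was 246 FPKM in LID, 144 FPKM in SID and 240 FPKM in HID. Of 6 neutrophil markers tested, 5 rose and 0 fell in LID against SID (S100a8, S100a9, Camp, Ngp and Retnlg), with a median change of 2.64, and 3 of those 6, Camp, Ngp and Retnlg, were tested only through their LID level. In HID against SID 3 of 3 rose (S100a8, S100a9 and Lcn2), with a median of 1.66, and in HID against LID 1 of 6 rose and 5 fell. The 9 listed neutrophil markers summed to 204 FPKM in LID, 11.3 FPKM in SID and 39.9 FPKM in HID. Mpo, 1 of these markers, was at 0.289 FPKM in LID and 0 in SID and HID. The summed C1q chains were 0.644 of the macrophage marker sum in LID, 0.718 in SID and 0.537 in HID. The part of these markers in the C1q and properdin levels was not tested.

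**Figure D5:**
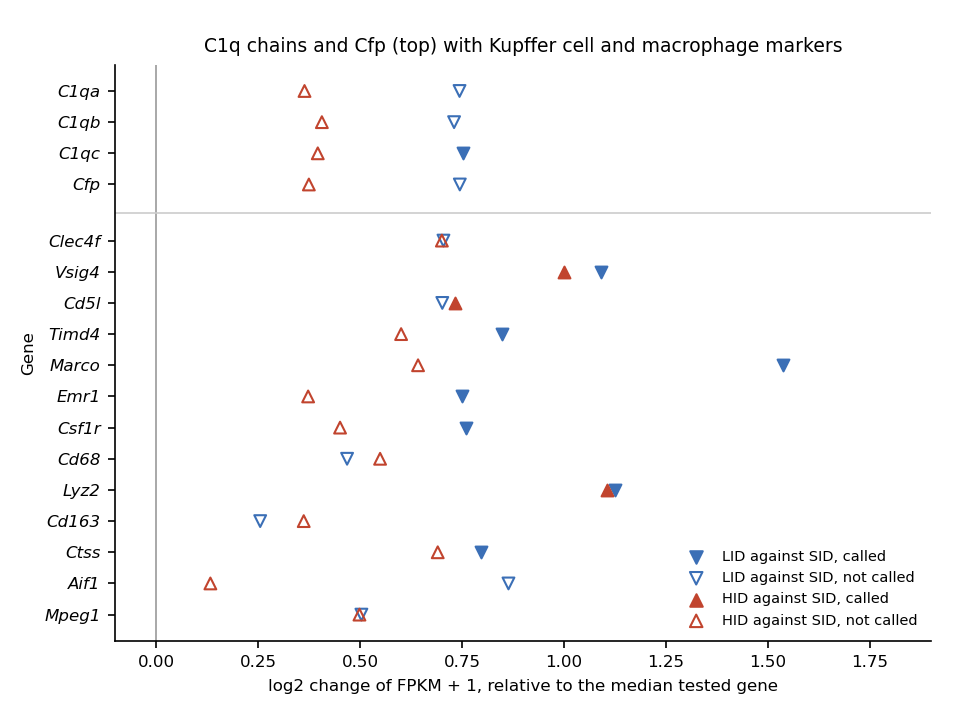
Log2 change against SID of the C1q chains and Cfp (top) and of 13 Kupffer cell and macrophage markers (below), as FPKM + 1 relative to the median tested gene; downward triangles stand for LID and upward triangles for HID, filled where the authors' adjusted p was below 0.05. Every symbol lies above 0, with Marco farthest right at 1.54 in LID, and the C1q chains lie between 0.73 and 0.75 in LID and between 0.36 and 0.41 in HID.

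The other early members of complement did not pass in any comparison. C1ra, the C1r protease, had 57.4 FPKM in LID, 86.4 FPKM in SID and 79.9 FPKM in HID, and in LID against SID its change of −0.45 did not pass (adjusted p = 0.129 in the authors' deposited table). C4b, the C4 of classical and lectin convertases, had 102 FPKM in LID, 142 FPKM in SID and 127 FPKM in HID. C4a, its near copy, had 1.74 FPKM in LID, 3.59 FPKM in SID and 2.44 FPKM in HID and fell in LID against SID (adjusted p = 0.000979 in the authors' deposited table), and reads shared between the copies make both values uncertain. C1ra likewise has a close copy, C1rb, at 2.38 to 3.37 FPKM.

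Of the lectin pathway genes, Mbl1 and Mbl2 encode mannose-binding lectins, and Masp1 and Masp2 the proteases that travel with them. Mbl2 had 462 FPKM in LID, 498 FPKM in SID and 493 FPKM in HID. Mbl1 had 231 FPKM in LID, 251 FPKM in SID and 181 FPKM in HID, so that it stood at 0.500, 0.505 and 0.368 of Mbl2 in LID, SID and HID. Masp2, which cleaves C4 and C2, had 103 FPKM in LID, 149 FPKM in SID and 95.6 FPKM in HID and was the only uncalled member with at least a 1.5-fold difference in HID against SID, at 1.56-fold lower (adjusted p = 0.589 in the authors' deposited table). Masp1 stayed between 6.84 and 7.58 FPKM. No lectin gene among the members passed in any comparison.

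In the alternative pathway, C3, the shared hub of all routes, had 564 FPKM in LID, 753 FPKM in SID and 623 FPKM in HID. Cfb, the protease of the alternative convertase, had 214 FPKM in LID, 268 FPKM in SID and 209 FPKM in HID. Neither passed in any comparison. Cfd encodes factor D, made mainly by fat cells. It was listed at 0.173 FPKM in LID, 0.967 FPKM in SID and 0.0247 FPKM in HID, a mean below the 1 FPKM required here. The authors' deposited table gave it an adjusted p of 0.189 in HID against SID and 0.191 in LID against SID. The fat cell genes Adipoq, Lep and Plin1 were at or near 0, the highest value of the 3 being 0.0297 FPKM for Adipoq in LID. Of the 7 fat cell genes listed, Cfd among them, 2 were tested: Car3, a carbonic anhydrase that hepatocytes also express, fell to 212 FPKM in HID, against 695 FPKM in SID, and Fabp4, a fatty acid carrier also found in endothelial cells and macrophages, rose to 136 FPKM in LID, against 20.7 FPKM in SID. The 7 summed to 627 FPKM in LID, 718 FPKM in SID and 231 FPKM in HID, and their part in the Cfd level was not tested. The inhibitors Cfi, which cuts C3b and C4b, and C4bp, its cofactor for C4b, had 195 and 203 FPKM in LID, 245 and 267 FPKM in SID and 251 and 269 FPKM in HID, and did not pass.

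None of the 17 coagulation members passed the threshold in any of the 3 comparisons. At an unadjusted p below 0.05 in the authors' deposited table, 0 stood out in HID against SID, 3 were lower in LID against SID (F7, F12 and Proc) and 0 stood out in HID against LID. By that rule, in either direction, 18.1% of all tested genes stood out in HID against SID, 17.0% in LID against SID and 10.2% in HID against LID, so 3 of 17 is near the background. The vitamin K-dependent proteins were led by F2, prothrombin, with 569 FPKM in LID, 742 FPKM in SID and 547 FPKM in HID. F9, the protease missing in haemophilia B, was the steadiest member, with 74.6 FPKM in LID, 74.7 FPKM in SID and 74.8 FPKM in HID. Proc, which encodes the anticoagulant protein C, had 186 FPKM in LID, 298 FPKM in SID and 225 FPKM in HID, and its 1.61-fold lower level in LID than in SID missed the threshold (adjusted p = 0.112 in the authors' deposited table). F10, the protease that makes thrombin, lay between 123 and 135 FPKM, F7, which starts the tissue factor route, between 24.8 and 33.4 FPKM, and Pros1, the protein S cofactor of protein C, between 13.3 and 13.6 FPKM over the 3 diets.

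F5 and F8 are the cofactors of factors Xa and IXa. F5 had 28.5 FPKM in LID, 32.8 FPKM in SID and 31.3 FPKM in HID, and F8 had 1.81 FPKM in LID, 1.68 FPKM in SID and 1.56 FPKM in HID. Of 11 sinusoidal endothelial markers, the cells that make factor VIII, Lyve1 rose in HID against SID, while Stab2 and Lyve1 rose and Ehd3 fell in LID against SID. The summed level of these markers was 94.6 FPKM in LID, 111 FPKM in SID and 119 FPKM in HID, with none listed at 0.

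The contact system starts coagulation on charged surfaces and releases bradykinin from kininogen. F12, its starting protease, had 138 FPKM in LID, 211 FPKM in SID and 180 FPKM in HID, and was 1.54-fold lower in LID than in SID (adjusted p = 0.142 in the authors' deposited table). Kng1 had 615 FPKM in LID, 907 FPKM in SID and 1010 FPKM in HID, lowest in LID and highest in HID. Its 1.64-fold higher level in HID than in LID did not pass (adjusted p = 0.583 in the authors' deposited table), and reads shared with its close copy Kng2, at 102 to 151 FPKM, make its value uncertain. Klkb1, plasma prekallikrein, lay between 42.1 and 53.6 FPKM and F11, which activates factor IX, between 15.6 and 21.8 FPKM.

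The fibrinogen chains were the most abundant members on every diet. Fgb had 2453 FPKM in LID, 2703 FPKM in SID and 3306 FPKM in HID, and Fgg had 2682 FPKM in LID, 2898 FPKM in SID and 3470 FPKM in HID. Fga had 864 FPKM in LID, 1158 FPKM in SID and 1071 FPKM in HID. None passed, with adjusted p from 0.876 to 0.979 for Fgb, Fgg and Fga in the 3 comparisons except 0.836 for Fga in LID against SID, all in the authors' deposited table. Fgb kept to 0.915, 0.933 and 0.953 of Fgg in LID, SID and HID, whereas Fga stood at 0.352, 0.428 and 0.324 of Fgb. F13b, the carrier chain of the factor that cross-links fibrin, lay between 77.9 and 81.6 FPKM, and Plg, the plasmin precursor, had 469 FPKM in LID, 673 FPKM in SID and 607 FPKM in HID. Of 14 tested genes of the acute-phase response, to which fibrinogen and several complement genes belong, Apcs rose and Socs3 fell in HID against SID. Apcs and Saa2 rose and Socs3 fell in LID against SID, and Saa2 fell in HID against LID. The median change of the 14 was −0.30 in HID against SID, with 12 lower and 2 higher by FPKM. It was 0.06 in LID against SID, with 8 lower and 6 higher, and −0.26 in HID against LID, with 9 lower and 5 higher.

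Other genes of the same pathways were read from a list of 62, of which 57 were in the table. In HID against SID, 1 of 40 tested rose, Vsig4, a C3b receptor of Kupffer cells at 22.7 FPKM in HID and 11.4 FPKM in SID, and 0 fell. In LID against SID, 4 of 41 rose and 3 fell, and in HID against LID, 0 of 41 rose and 2 fell. Both counts include 1 fibrinolysis gene. Of these other fibrinolysis genes, 5 were tested in LID against SID and 4 in HID against SID, 1 being tested only through its LID level. Their widest changes were 217-fold higher in LID than in SID, and 0.00711 of the LID level in HID. Fgl1, a fibrinogen-like protein of hepatocytes, rose to 752 FPKM in LID, against 361 FPKM in SID (adjusted p = 0.0298 in the authors' deposited table). Thbd, the thrombin receptor that activates protein C, rose to 1.85 FPKM in LID, against 0.908 FPKM in SID (adjusted p = 0.0243 in the authors' deposited table), and was tested only through its LID level. Besides C4a, Hrg, a histidine-rich plasma protein, fell to 202 FPKM in LID, against 382 FPKM in SID (adjusted p = 0.0147 in the authors' deposited table), and Serpina10, which inhibits factor Xa, to 55.6 FPKM in LID, against 95.0 FPKM in SID (adjusted p = 0.00894 in the authors' deposited table). Vsig4 rose in LID as well, and Thbd was among the genes that fell in HID against LID. The complement regulators Clu, Vtn and Serping1 and the thrombin inhibitor Serpinc1 did not pass in any comparison, with 212 to 331 FPKM for Serping1 and 658 to 817 FPKM for Serpinc1.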

How the data were processed

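RNA of 9 liver libraries, 3 per diet, was made with a TruSeq kit, per the labels' protocols. Per the submitters' processing notes, TopHat and Cufflinks 2.2.1 were run on mm9. The deposited table held 1 FPKM per gene and diet, combined by the authors. The unit follows from Cufflinks and the values, since the header names none. The authors also deposited a p-value and an adjusted p-value per gene and comparison. Which test gave them is not stated in the labels or headers. Per the file headers the diets were called NORM, LFE and GFE, and GFE was taken as HID by elimination. Read depth is unknown, so no counting interval was given.

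From these values, log2 changes of FPKM + 1 were computed with Python 3.11.15, pandas 2.3.3 and numpy 2.4.6 and centred on the median tested gene, a scale that understates changes of low genes. The procedure was tested on simulated data. With 1 value per diet the planned limma test could not be fitted, so calls rest on the deposited adjusted p, and p-values measure only the spread that the authors' test saw.

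The members, the gene lists and the tests were chosen with earlier results of these data known. The rule named every member, the called genes of each list (up to 6 per comparison, of which examples are printed) and the 5 genes nearest to C6. The motif search, the neighbouring genes and the ratios are descriptions. Genes named outside the rule were Tfrc, Alb, Emr1, Mpo, Pf4, F13a1, Vwf, Adipoq, Lep, Plin1, Hnf4a and Cebpa. Also outside it were C1rb, Kng2, Clu, Vtn, Serping1, Serpinc1 and the neighbours. All but the neighbours were chosen after their values were seen. A few listed genes and 1 planned motif are not reported here. The deposited methylation table, 48 loci in iron-related genes and none in a member, was not used. The alternatives were other pseudocounts, filters, centring and scaling.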

Additional observations from a re-analysis of the deposited data

How the results depend on the processing

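The same members were called in HID against SID (4) and in LID against SID (5) without a filter on low values and with a mean of at least 5 FPKM. Requiring at least a 2-fold difference left 0 of the 5 calls in LID against SID. The median log2 change over the members, main value −0.06 for HID against SID, was −0.043 with a pseudocount of 0.1, −0.084 with 5 and −0.13 without centring. For LID against SID, −0.22 as reported, it was −0.20, −0.27 and −0.35 under the same settings and −0.12 with equal FPKM sums. For HID against LID, −0.05 as reported, it was −0.064, −0.026 and 0.011, and −0.15 with equal sums. The cause was not tested. Of 114 single changes of members, 9 moved across 0 with equal sums, 11 without centring, 4 with a pseudocount of 0.1 and 4 with 5, none of them a called one. Over all genes, calls in HID against SID were 631 as reported, 368 with a mean of at least 5 FPKM and 355 with at least a 2-fold difference. In LID against SID 463 became 181 at 2-fold (94 higher and 87 lower, against 149 higher and 314 lower), and in HID against LID 374 became 229 with a mean of at least 5 FPKM. No paired analysis was possible because the table holds 1 combined value per diet, and leaving out single mice was not run for the same reason. Calls rest on the authors' test with 3 mice per diet, and a gene that missed the threshold is not shown to be unchanged.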

Other observations

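Transcripts of platelets and the vessel wall (Vwf alone), which meet the liver-made factors in the blood, stood low in the combined value of each diet. Ppbp, a chemokine precursor of platelet granules, rose to 8.18 FPKM in LID, against 0.213 FPKM in SID, and fell to 0.335 FPKM in HID, against 8.18 FPKM in LID. Pf4, platelet factor 4, had 3.42 FPKM in LID, 0.974 FPKM in SID and 1.63 FPKM in HID and did not pass. The 7 platelet and megakaryocyte markers summed to 13.6 FPKM in LID, 1.65 FPKM in SID and 2.47 FPKM in HID, and 1 of 2 tested, Ppbp, rose in LID against SID, tested only through its LID level. F13a1, the catalytic chain of factor XIII that platelets and macrophages carry, stood at 0.169 FPKM in LID, 0.0290 FPKM in SID and 0.0417 FPKM in HID and was not tested. Vwf, the endothelial carrier of factor VIII, had 0.947 FPKM in LID, 0.503 FPKM in SID and 0.388 FPKM in HID, below the level tested here.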
